A study of Mus musculus with 24 samples.

Results

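The hypoxia and glycolysis genes are a fixed set of 32 mouse genes, made up of the hypoxia-inducible factor (HIF) subunits and the enzymes that sense oxygen for them, known HIF target genes, and the transporters and enzymes that carry glucose through to lactate. Accessible regions were taken for each gene by merging the peaks of 8 deposited lists into 63188 regions and giving each region to its nearest protein-coding gene within 50 kb. The 32 genes held 161 regions, out of 52791 regions with a gene and 15667 genes with a region. Each of the 32 had at least 1 region, and their median was 4 regions against 2 over all genes with one.

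The study mapped open DNA with ATAC-seq, a transposase assay, in 24 samples of FACS-sorted basal cells of mouse skin. After full-thickness wounds, Sox9-CreER/R26-YFP mice gave 3 samples at day 7 and 2 at day 80, and the labels call these cells wound-responsive offspring of the epidermal stem cell. After partial-thickness wounds, Krt19-CreER/R26-YFP mice gave 3 samples at day 3, 2 at day 7 and 3 at day 80, called offspring of the hair follicle stem cell. Unwounded Krt19-CreER/R26-YFP mice gave 4 hair follicle samples at day 0, and 4 epidermal samples at day 0 with 3 more at day 80. All mice were of a CD1 x C57BL/6J cross and all carried an inducible Cre with a YFP reporter, so no group is free of these alleles. Sox9 and Krt19 are both genes of hair follicle stem cells. The Cre line and the labelled cell of origin both differ between the wound types, so wound depth, Cre line and origin cannot be told apart. Neither the age of the mice nor the sort gates are known here.

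Each group has 1 peak list, so there is no spread between replicates, no test between groups and no p-value. A list held a region when a peak of that list overlapped it by at least 1 bp. Shares are given with their exact 95% Clopper-Pearson interval, which covers counting error alone and treats regions as independent, although several belong to 1 gene. The lists differ in length, from 29029 regions in the hair follicle list to 36646 in the full-thickness day 7 list. They also differ in the weakest peak kept, since the lowest -log10 p lay between 7.86 in the epidermal day 80 list and 40.2 in the partial-thickness day 7 list. In bulk cells, a region open in few cells cannot be told apart from one weakly open in many. Read depth is unknown.

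Labelled cell types were set against marker genes. The 7 hair follicle stem cell markers together had 17 and 24 regions after full-thickness wounds (days 7 and 80), 38, 38 and 19 after partial-thickness wounds (days 3, 7 and 80), and 43, 23 and 19 in the hair follicle, epidermal day 0 and epidermal day 80 lists. The 5 epidermal and basal markers had 23 and 17 regions after full-thickness wounds and 27, 22 and 24 after partial-thickness wounds. The unwounded lists, in the same order, had 16, 12 and 23, so epidermal day 0 had the fewest. Krt14, a keratin gene of basal cells, had a region in every list. Krt5 had 0 regions at epidermal day 0, against 1 in hair follicle cells, and Trp63 had 2, against 8. Klf5 and Gata3 went the other way, with 2 and 6 regions at epidermal day 0, against 1 and 3. The immune markers had 3 to 5 regions in the wound lists and 1 to 4 in the unwounded lists. The endothelial markers had 7 to 9 regions in the wound lists and 3 to 6 in the unwounded lists, nearly all of Pecam1, while Kdr was at 0 in every list. The fibroblast markers had 2 or 3 regions in the wound lists and 2 to 7 in the unwounded lists, and Col3a1 was at 0 throughout. The melanocyte markers had 6 to 8 regions in the wound lists and 7 to 12 in the unwounded lists, with Tyr and Kit at 0 in every list. The part of these other cell types in the results was not tested. The epidermal day 0 list carries a control tag for day 7 inside its peak names, and it is used here as day 0 after the name it was deposited under.

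HIF-1 and HIF-2 are transcription factors made of an oxygen-labile alpha subunit (Hif1a or Epas1) and a stable partner (Arnt). In oxygen, Egln prolyl hydroxylases mark the alpha subunit for destruction, and when oxygen is short the alpha subunit persists and the pair binds hypoxia response elements, whose core is ACGTG or GCGTG. Its targets raise glucose uptake, glycolysis, lactate export and blood vessel growth, and keratinocytes are known to use HIF activity and glycolysis while they close a wound.

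The start sites of Tpi1, Car9, Slc2a1, Gpi1 and Egln1 were each held by some lists and not by others, and their sequences are shown here, beside that of Ldha, which was in every list. The start windows of Car12, Bnip3 and Eno1 also differed between lists and are not printed. These windows were chosen after their values were seen. The windows run 250 bases before to 50 bases after the RefSeq start site on the GRCm38.p6 assembly, of which mm10 is the browser name, and are read 5′ to 3′ along the gene. Capitals mark the core of the hypoxia response element on either strand, ACGTG or GCGTG and their reverse complements CACGT and CACGC. The letters CACGTG match on both strands, so both matches overlap there. Tpi1, the enzyme that interconverts the triose phosphates, is at chr6:124814109-124814408 on the minus strand and had a peak over its start in every wound list and in no unwounded list:
Tpi1: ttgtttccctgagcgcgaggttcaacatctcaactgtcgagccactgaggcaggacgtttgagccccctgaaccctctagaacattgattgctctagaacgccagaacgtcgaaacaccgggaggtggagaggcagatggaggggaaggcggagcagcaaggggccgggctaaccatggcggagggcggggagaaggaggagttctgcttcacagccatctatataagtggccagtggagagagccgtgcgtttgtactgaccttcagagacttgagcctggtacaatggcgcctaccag
Car9, a membrane carbonic anhydrase and a standard marker of hypoxic cells, is at chr4:43506776-43507075 on the plus strand and had the opposite pattern, with a peak in the 3 unwounded lists and in no wound list:
Car9: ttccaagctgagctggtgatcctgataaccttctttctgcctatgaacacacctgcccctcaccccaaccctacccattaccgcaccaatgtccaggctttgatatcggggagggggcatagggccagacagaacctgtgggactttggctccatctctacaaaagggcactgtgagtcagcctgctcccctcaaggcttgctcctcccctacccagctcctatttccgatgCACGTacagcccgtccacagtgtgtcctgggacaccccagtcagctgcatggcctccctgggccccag
Slc2a1, the glucose transporter GLUT1, is at chr4:119108495-119108794 on the plus strand and had a peak in 5 lists:
Slc2a1: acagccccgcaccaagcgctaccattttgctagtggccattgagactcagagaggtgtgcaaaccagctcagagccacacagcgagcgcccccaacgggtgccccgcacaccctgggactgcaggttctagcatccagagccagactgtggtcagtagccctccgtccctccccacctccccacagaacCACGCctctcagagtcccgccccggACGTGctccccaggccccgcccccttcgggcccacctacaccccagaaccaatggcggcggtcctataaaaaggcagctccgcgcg
Gpi1, the isomerase of the second step of glycolysis, is at chr7:34230287-34230586 on the minus strand and had a peak in 2 lists:
Gpi1: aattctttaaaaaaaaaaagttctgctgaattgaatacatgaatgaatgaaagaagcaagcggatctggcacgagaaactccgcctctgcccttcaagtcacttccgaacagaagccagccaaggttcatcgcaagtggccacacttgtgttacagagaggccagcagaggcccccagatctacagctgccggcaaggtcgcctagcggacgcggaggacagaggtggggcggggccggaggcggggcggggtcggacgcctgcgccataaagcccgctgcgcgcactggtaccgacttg
Egln1, the main oxygen-sensing prolyl hydroxylase, is at chr8:124949205-124949504 on the minus strand and had a peak in 6 lists:
Egln1: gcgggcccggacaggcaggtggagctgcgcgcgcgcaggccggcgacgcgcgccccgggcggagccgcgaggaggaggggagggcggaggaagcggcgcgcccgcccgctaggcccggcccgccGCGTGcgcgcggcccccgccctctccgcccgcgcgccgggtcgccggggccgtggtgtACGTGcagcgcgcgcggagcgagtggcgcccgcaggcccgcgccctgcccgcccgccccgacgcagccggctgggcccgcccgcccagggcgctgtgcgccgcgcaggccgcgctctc
Ldha, the subunit of lactate dehydrogenase that favours lactate formation, is at chr7:46845554-46845853 on the plus strand and had a peak in all 8 lists:
Ldha: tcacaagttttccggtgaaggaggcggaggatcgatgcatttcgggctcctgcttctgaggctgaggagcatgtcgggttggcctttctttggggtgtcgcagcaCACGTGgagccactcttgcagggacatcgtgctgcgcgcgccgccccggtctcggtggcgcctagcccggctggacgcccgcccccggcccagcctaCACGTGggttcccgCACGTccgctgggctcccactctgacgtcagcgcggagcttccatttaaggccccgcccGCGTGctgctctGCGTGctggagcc

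The core was common in these windows. RefSeq promoter windows were found for 30 of the 32 genes, as 44 windows. ACGTG or GCGTG, on either strand, stood in 35 of the 44 windows (79.5%) and in at least 1 window of 27 of the 30 genes, beside 43.8% of all 32851 windows of the same length in the RefSeq table. Among windows with a peak in all 8 lists the share was 22 of 24 (91.7%) for these genes and 69.3% over all windows. The windows of Tpi1, Gpi1 and Car12 held no core, as the printed Tpi1 and Gpi1 sequences show. Some windows of other genes held none either. Among them were chr17:46032328-46032627 of Vegfa and chr9:59656326-59656625 of Pkm, both with a peak in all 8 lists. The Vegfa window that did hold the core, chr17:46025114-46025413, had a peak in 0 lists. The Car9 window held 1, and the Ldha window held several. The AP-1 motif TGANTCA, searched on both strands, was in 2 of the 44 windows (4.55%), those of Aldoa and Car9, beside 7.81% of all windows. A match is a run of letters and not evidence that a factor binds there.

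The 161 regions were held by the lists as follows. The full-thickness lists held 116 at day 7 and 110 at day 80, which is 72.0% and 68.3% of the set, beside 58.0% and 51.1% of all regions. The partial-thickness lists (days 3, 7 and 80) held 115 (71.4%), 108 (67.1%) and 100 (62.1%), beside 56.6%, 55.0% and 51.9% of all regions. The hair follicle list held 74 (46.0%), the epidermal day 0 list 92 (57.1%) and the epidermal day 80 list 89 (55.3%), beside 45.9%, 47.8% and 49.8% of all regions. Every wound list thus held more of the set than any unwounded list, and the wound lists were also the longer ones. With each list shortened to its 29365 strongest peaks, the full-thickness lists held 93 and 99 of the set, the partial-thickness lists 88, 92 and 90, and the hair follicle, epidermal day 0 and epidermal day 80 lists 74, 88 and 84. On that footing the wound lists were no longer set apart, since partial-thickness day 3 and epidermal day 0 were equal. Where peaks had to cover at least 50% of a region, the full-thickness day 80 list held 37, fewer than the 52 to 59 of the unwounded lists. At full length, the set's share in the hair follicle list was within 1 percentage point of that of all regions, and in the other 7 lists it was the larger. Regions in all 8 lists numbered 43 (26.7%, interval 20.1% to 34.2%), beside 22.0% of all regions. Regions in 1 list alone numbered 25 (15.5%, interval 10.3% to 22.1%), beside 26.6% of all regions. Both turned when only the stronger 50% of each list was taken, to 13.0% in all 8 lists, beside 18.8%, and 30.0% in 1 list, beside 27.6%.

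**Figure D1:**
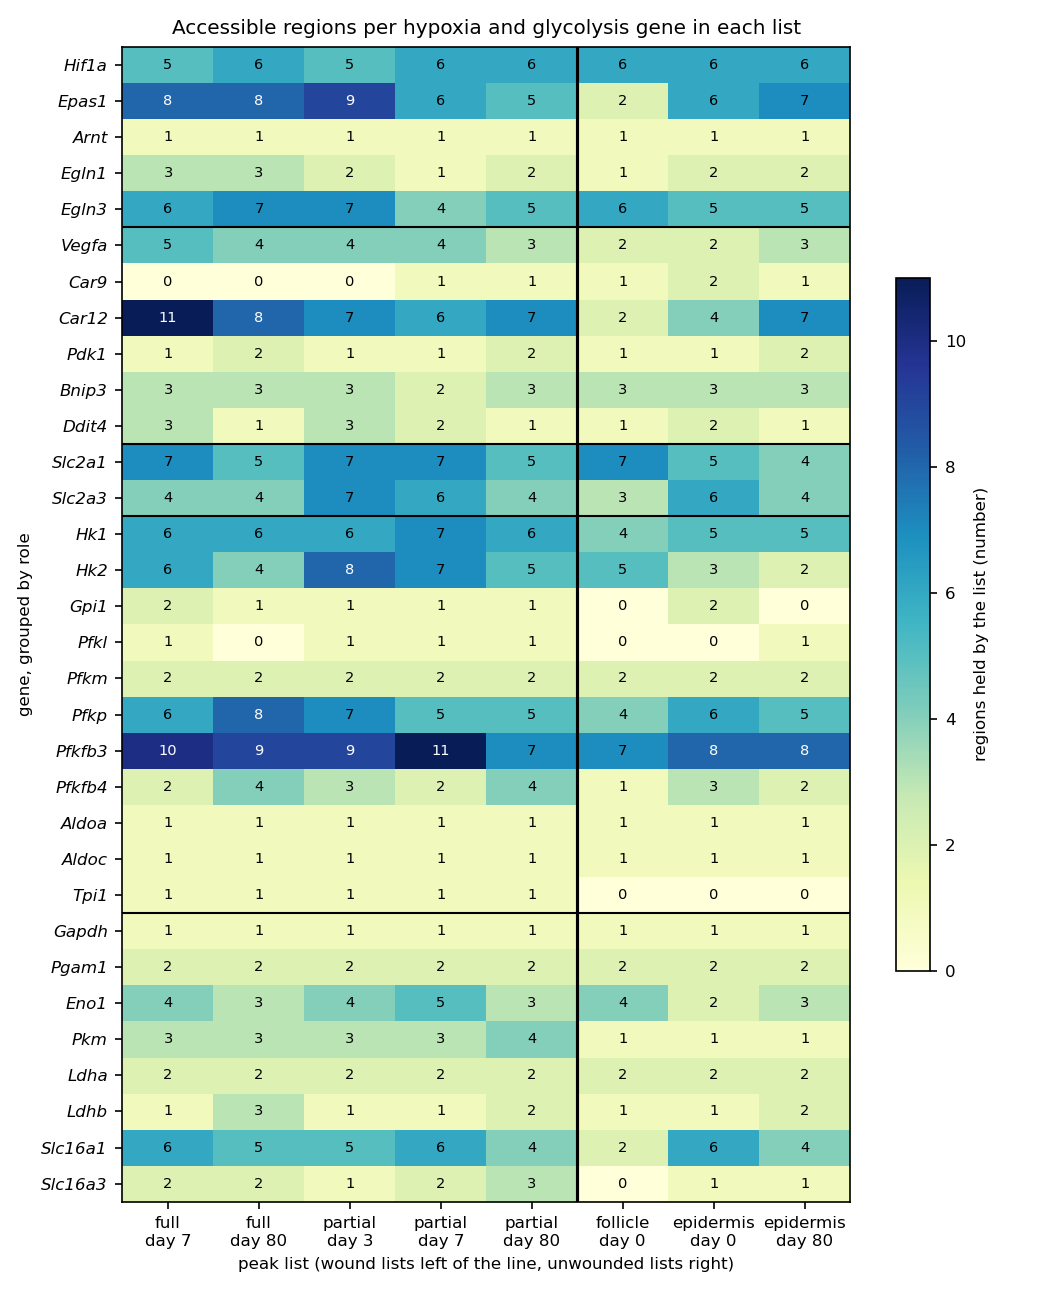
Number of accessible regions given to each of the 32 genes (rows, grouped by role) in each peak list (columns), wound lists left of the vertical line and unwounded lists right of it; colour repeats the number. Tpi1 has 1 region in each wound list and 0 in each unwounded list, Pkm has 3 or 4 against 1, and the enzymes Aldoa, Aldoc and Gapdh have 1 in every list.

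Regions near a start site were mostly shared. Of the 161 regions, 34 (21.1%) lay within 1 kb of a start site of some gene, beside 17.7% of all regions. In all 8 lists were 22 of those 34 (64.7%), beside 61.3% of all such regions, and 21 of the 127 others (16.5%), beside 13.6%. For 7 genes every region was in all 8 lists: Arnt, Aldoa, Aldoc and Gapdh with 1 region each, and Pfkm, Pgam1 and Ldha with 2 each. Aldoa and Aldoc encode aldolases, Gapdh the dehydrogenase of the next step, Pfkm a muscle-type phosphofructokinase, and Pgam1 the phosphoglycerate mutase.

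**Figure D2:**
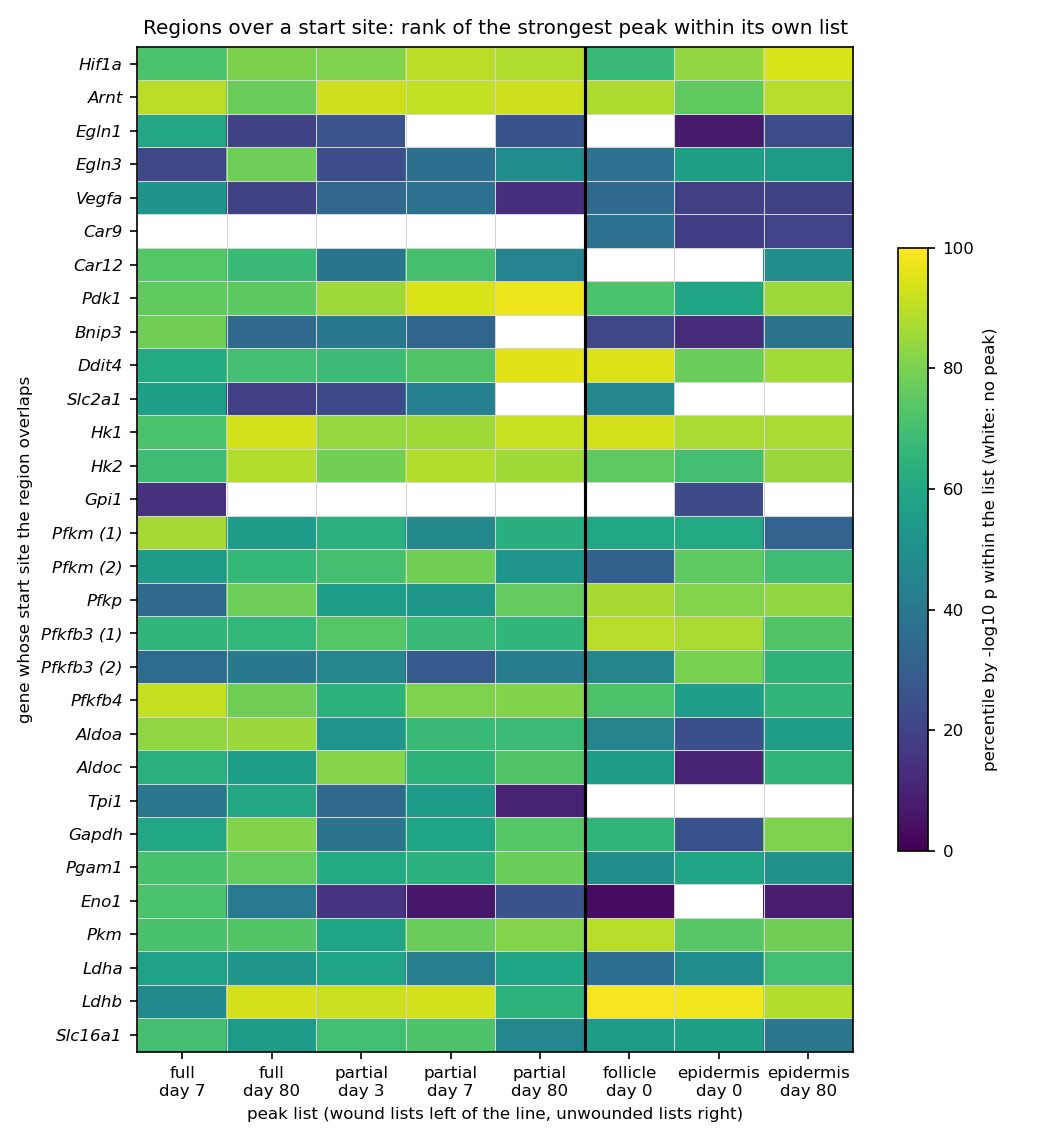
Regions that overlap the start site of a hypoxia or glycolysis gene (rows; a gene with more than 1 such region is numbered) in the 8 lists (columns, wound lists left of the line), coloured by the percentile of the strongest peak within its own list by -log10 p; white marks no peak. Car9 is white in the 5 wound lists, Tpi1 in the 3 unwounded lists, and Gpi1 in 6 of the 8.

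The oxygen-sensing genes had 32 regions, of which the full-thickness lists held 23 at day 7 and 25 at day 80, the partial-thickness lists 24, 18 and 19 at days 3, 7 and 80, the hair follicle list 16, and the epidermal lists 20 at day 0 and 21 at day 80. Hif1a itself had 5 or 6 regions in every list, among them its main start site at chr12:73907250-73909164 in all 8. A region over the 5′ end of the annotated Hif1a gene, chr12:73901180-73902454, was in every list but that of the hair follicle. Arnt had 1 region, over its start, in all 8 lists. Thus the start sites of both subunits of HIF-1 were held in every list, wounded or not.

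Epas1, the HIF-2 alpha subunit, varied most among the HIF genes. It had 8 regions in each full-thickness list, 9, 6 and 5 in the partial-thickness lists (days 3, 7 and 80), and 2, 6 and 7 in the hair follicle, epidermal day 0 and epidermal day 80 lists. Of its 12 regions, 3 were in every list but that of the hair follicle: chr17:86743536-86744294 and chr17:86749010-86749938 at lower coordinates than the gene, and chr17:86769480-86770438 inside it. A region at higher coordinates than the gene, chr17:86850645-86851340, was in both full-thickness lists and the partial-thickness day 3 and day 7 lists, at percentiles 77.8, 67.8, 48.9 and 73.2 of the peaks of those lists, and in no unwounded list. Another 3 regions on that side of the gene were in the partial-thickness day 3 list alone.

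Egln1 had 3 regions in each full-thickness list, 2, 1 and 2 in the partial-thickness lists (days 3, 7 and 80), and 1 in the hair follicle list and 2 in each epidermal list. Its start region, chr8:124947783-124950362, was missing from the partial-thickness day 7 and hair follicle lists. Its percentile within the list was 59.8 in the full-thickness day 7 list and 7.16 to 26.2 in the other 5 lists that held it. The authors' fold enrichment over local background was 6.513 in the full-thickness day 7 list and 5.525 to 6.523 in those 5, so a higher rank did not go with a higher fold. Egln3, a prolyl hydroxylase that is itself a HIF target, had 6 and 7 regions in the full-thickness lists, 7, 4 and 5 in the partial-thickness lists, 6 in the hair follicle list and 5 in each epidermal list. One of its regions, chr12:54210652-54211133, was held by both day 80 wound lists and by no other list.

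The HIF target genes had 30 regions, of which the wound lists held 23 and 18 (full-thickness days 7 and 80) and 18, 16 and 17 (partial-thickness days 3, 7 and 80), against 10 in the hair follicle list and 14 and 17 in the epidermal lists of days 0 and 80. In lists of equal length the counts, in the same order, were 15 and 15, then 12, 11 and 16, against 10, 12 and 14. Partial-thickness days 3 and 7 were then at or below both epidermal lists. Vegfa, the blood vessel growth factor, had 5 and 4 regions in the full-thickness lists, 4, 4 and 3 in the partial-thickness lists, and 2, 2 and 3 in the hair follicle, epidermal day 0 and epidermal day 80 lists. Its start region was in all 8. An upstream region of Vegfa, chr17:46050655-46052000, stood at percentiles 90.5 and 27.4 in the full-thickness lists and 87.5, 71.7 and 73.7 in the partial-thickness lists, against 3.77 in the epidermal day 80 list and no peak in either day 0 list. A region farther upstream, chr17:46069641-46070591, was in both full-thickness lists and the partial-thickness day 3 and day 7 lists, and in no unwounded list.

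Car12 and Car9, membrane carbonic anhydrases that handle the acid of glycolysis, had opposite patterns at their start sites. Car12 had 11 and 8 regions in the full-thickness lists and 7, 6 and 7 in the partial-thickness lists, against 2 in the hair follicle list, 4 in the epidermal day 0 list and 7 in the epidermal day 80 list. With lists of equal length it had 6 and 6 regions in the full-thickness lists and 5, 3 and 7 in the partial-thickness lists, against 2, 4 and 6 in the hair follicle, epidermal day 0 and epidermal day 80 lists. The partial-thickness day 7 list was then below the epidermal day 0 list. The Car12 start region, chr9:66713149-66715699, was in all 5 wound lists, at percentiles 38.8 to 73.6, and in the epidermal day 80 list at 49.1, but in neither day 0 list. It therefore does not separate wounded from unwounded epidermis at day 80.

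The Car9 start region, chr4:43506469-43507296, was held by the 3 unwounded lists and by no wound list. Its peaks stood at percentile 37.3 in the hair follicle list and 18.6 and 20.0 in the epidermal lists of days 0 and 80, all in the weaker part of their lists, so each was lost when the stronger 50% of each list was taken. Of all 63188 regions, 0.187% had that presence. The region lies equally near Arhgef39. A second Car9 region, inside the gene, was in the partial-thickness day 7 and day 80 lists and the epidermal day 0 list. At day 80 the partial-thickness and epidermal lists had equal numbers of both genes, 7 of Car12 and 1 of Car9, but the Car9 region was a different one in each. The full-thickness day 80 list had 8 of Car12 and 0 of Car9.

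Of the other targets, Pdk1, the kinase that keeps pyruvate out of the mitochondrion, had its start region in all 8 lists and a second region in the 3 day 80 lists alone. Bnip3, a factor of mitochondrial turnover, had 2 or 3 regions in every list, and its start region was missing only from the partial-thickness day 80 list. Ddit4, an inhibitor of mTOR signalling, had 3 and 1 regions in the full-thickness lists, 3, 2 and 1 in the partial-thickness lists, and 1, 2 and 1 in the hair follicle, epidermal day 0 and epidermal day 80 lists.

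The glucose transporter genes had 18 regions, and here wound and unwounded lists overlapped: 11 and 9 in the full-thickness lists, 14, 13 and 9 in the partial-thickness lists, and 10, 11 and 8 in the hair follicle, epidermal day 0 and epidermal day 80 lists. Slc2a1 had 7 and 5 regions in the full-thickness lists and 7, 7 and 5 in the partial-thickness lists, against 7 in the hair follicle list, 5 in the epidermal day 0 list and 4 in the epidermal day 80 list. Its start region, chr4:119108028-119109447, had a peak in both full-thickness lists (percentiles 56.6 and 18.8), the partial-thickness day 3 and day 7 lists (22.9 and 44.0) and the hair follicle list (46.3). It had none in the partial-thickness day 80 list or in either epidermal list. A small region 5969 bases before the start, chr4:119102194-119102776, was in all 5 wound lists, at percentiles 57.9 and 41.3 after full-thickness wounds and 47.3, 59.9 and 31.7 after partial-thickness wounds, and in no unwounded list. The hair follicle list had 2 Slc2a1 regions that no other list held.

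Slc2a3, the transporter GLUT3, had 4 regions in each full-thickness list, 7, 6 and 4 in the partial-thickness lists, and 3, 6 and 4 in the hair follicle, epidermal day 0 and epidermal day 80 lists. Its strongest region, chr6:122810294-122812135, stood at percentile 94.5 or above in all 8 lists. Thus the partial-thickness day 3 list held the most Slc2a3 regions, and the epidermal day 0 list was level with partial-thickness day 7.

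The enzymes of upper glycolysis had 53 regions: 38 and 37 in the full-thickness lists, 40, 39 and 34 in the partial-thickness lists, and 25, 31 and 27 in the hair follicle, epidermal day 0 and epidermal day 80 lists. Every wound list held more than every unwounded list, but in lists of equal length the counts were 32 and 32, 30, 33 and 27 in the wound lists against 25, 31 and 27 in the unwounded lists, which overlap. Hk2, the inducible hexokinase that traps glucose in the cell, had 6 and 4 regions in the full-thickness lists and 8, 7 and 5 in the partial-thickness lists, against 5, 3 and 2 in the hair follicle, epidermal day 0 and epidermal day 80 lists. The Hk2 start was in all 8. Inside the gene, chr6:82733423-82735556 and chr6:82756194-82757440 were held by the hair follicle list, at percentiles 84.3 and 59.0, and by the partial-thickness day 3 and day 7 lists, at 13.2 to 39.0, and by no other list. The Pfkfb3 and Eno1 regions chr2:11441112-11443690 and chr4:150226724-150227785 had the same presence, which makes 4 regions (2.48%), beside 1.06% of all regions. By that definition the full-thickness lists held none of these 4.

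Hk1, the housekeeping hexokinase, had 6 regions in each full-thickness list and 6, 7 and 6 in the partial-thickness lists, against 4, 5 and 5 in the hair follicle, epidermal day 0 and epidermal day 80 lists. An intragenic region of Hk1, chr10:62313138-62313606, was in all 5 wound lists and no unwounded list, though at percentile 1.99 in the partial-thickness day 3 list it was among the weakest peaks there. Gpi1 had 2 and 1 regions in the full-thickness lists, 1 in each partial-thickness list, and 0, 2 and 0 in the hair follicle, epidermal day 0 and epidermal day 80 lists. Its intragenic region, chr7:34213095-34214092, was in all 5 wound lists, at percentiles 29.4 to 83.9, and in the epidermal day 0 list at 32.5. The Gpi1 start was in the full-thickness day 7 and epidermal day 0 lists alone, at 14.3 and 22.7.

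The phosphofructokinase genes differed among themselves. Pfkm had 2 regions in every list. Pfkp, the platelet-type enzyme, had 6 and 8 regions in the full-thickness lists, 7, 5 and 5 in the partial-thickness lists, and 4, 6 and 5 in the hair follicle, epidermal day 0 and epidermal day 80 lists. Pfkl, the liver type, had a single region, at the far end of the gene and equally near Cfap410, which was missing from the full-thickness day 80, hair follicle and epidermal day 0 lists. Pfkfb3, which makes the allosteric activator of phosphofructokinase, had 10 and 9 regions in the full-thickness lists, 9, 11 and 7 in the partial-thickness lists, and 7, 8 and 8 in the hair follicle, epidermal day 0 and epidermal day 80 lists. Downstream of Pfkfb3, chr2:11457912-11458965 was in the full-thickness day 7 list and the partial-thickness day 3 and day 7 lists, at percentiles 71.0, 85.4 and 61.0, and in none of the other 5. Regions in these 3 early wound lists and no other numbered 5 (3.11%), beside 3.45% of all regions. The downstream region chr2:11441112-11443690 stood at percentile 95.1 in the hair follicle list and at 50.2 and 20.5 in the partial-thickness day 3 and day 7 lists. Pfkfb4, a related enzyme, had 2 and 4 regions in the full-thickness lists, 3, 2 and 4 in the partial-thickness lists, and 1, 3 and 2 in the hair follicle, epidermal day 0 and epidermal day 80 lists.

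Tpi1 had 1 region, chr6:124813076-124814659, over its start. Its peaks stood at percentiles 40.0 and 60.4 in the full-thickness lists and 34.3, 55.4 and 10.0 in the partial-thickness lists (days 3, 7 and 80). The authors' fold enrichment over local background, a value of each peak within its own list, was 6.24 and 10.4 in the full-thickness lists and 5.24, 7.86 and 6.04 in the partial-thickness lists. No unwounded list had a peak there. Among all 32851 RefSeq promoter windows, 46 (0.140%) had a peak in every wound list and no unwounded list, and the Tpi1 window was the 1 such window of these genes. When all lists were shortened to the 29365 strongest peaks of each, the partial-thickness day 80 peak was lost and the other 4 wound lists kept theirs. With the stronger 50% of each list it was left in the full-thickness day 80 and partial-thickness day 7 lists alone.

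The genes of lower glycolysis and lactate had 28 regions: 21 in each full-thickness list, 19, 22 and 21 in the partial-thickness lists, and 13, 16 and 16 in the hair follicle, epidermal day 0 and epidermal day 80 lists. In lists of equal length the wound lists held 17, 18, 16, 19 and 19, and the unwounded lists 13, 15 and 15. The counts did not overlap there, but were close, at 16 against 15 at the nearest. Those of every other role did overlap in such lists, and those of the whole set met at 88. Where peaks had to cover at least 50% of a region the lower glycolysis counts overlapped too. The full-thickness day 80 list then held 7, against 12, 8 and 7 in the unwounded lists. At full length the wound lists held 51.1% to 58.0% of all regions and the unwounded lists 45.9% to 49.8%, without overlap either. Such shares of all regions are not given here for lists of equal length or with that cover, so the counts there have no value beside them. Pkm, pyruvate kinase of the final step, had 3 regions in each full-thickness list and 3, 3 and 4 in the partial-thickness lists, against 1 in each unwounded list. The first annotated Pkm start was in all 8 lists. The flanking regions chr9:59653265-59653948 and chr9:59659197-59660016 were in all 5 wound lists and no unwounded list. The upstream one ends 2628 bases before that start, and the downstream one begins 1970 bases after a later annotated start. The upstream one stood at percentiles 50.7 and 4.57 in the full-thickness lists and 40.9, 46.2 and 31.3 in the partial-thickness lists. The downstream one stood at 69.5 and 4.39 in the full-thickness lists and 51.2, 40.3 and 34.8 in the partial-thickness lists. Both were thus weak peaks of the full-thickness day 80 list, which reaches to a lowest -log10 p of 7.98, while the hair follicle and epidermal day 0 lists stop at 17.3 and 13.5. The epidermal day 80 list reaches to 7.86 and held neither region. At equal list length Pkm had 1 region in the full-thickness day 80 list, as in each unwounded list, and 3 in each of the other wound lists.

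**Figure D3:**
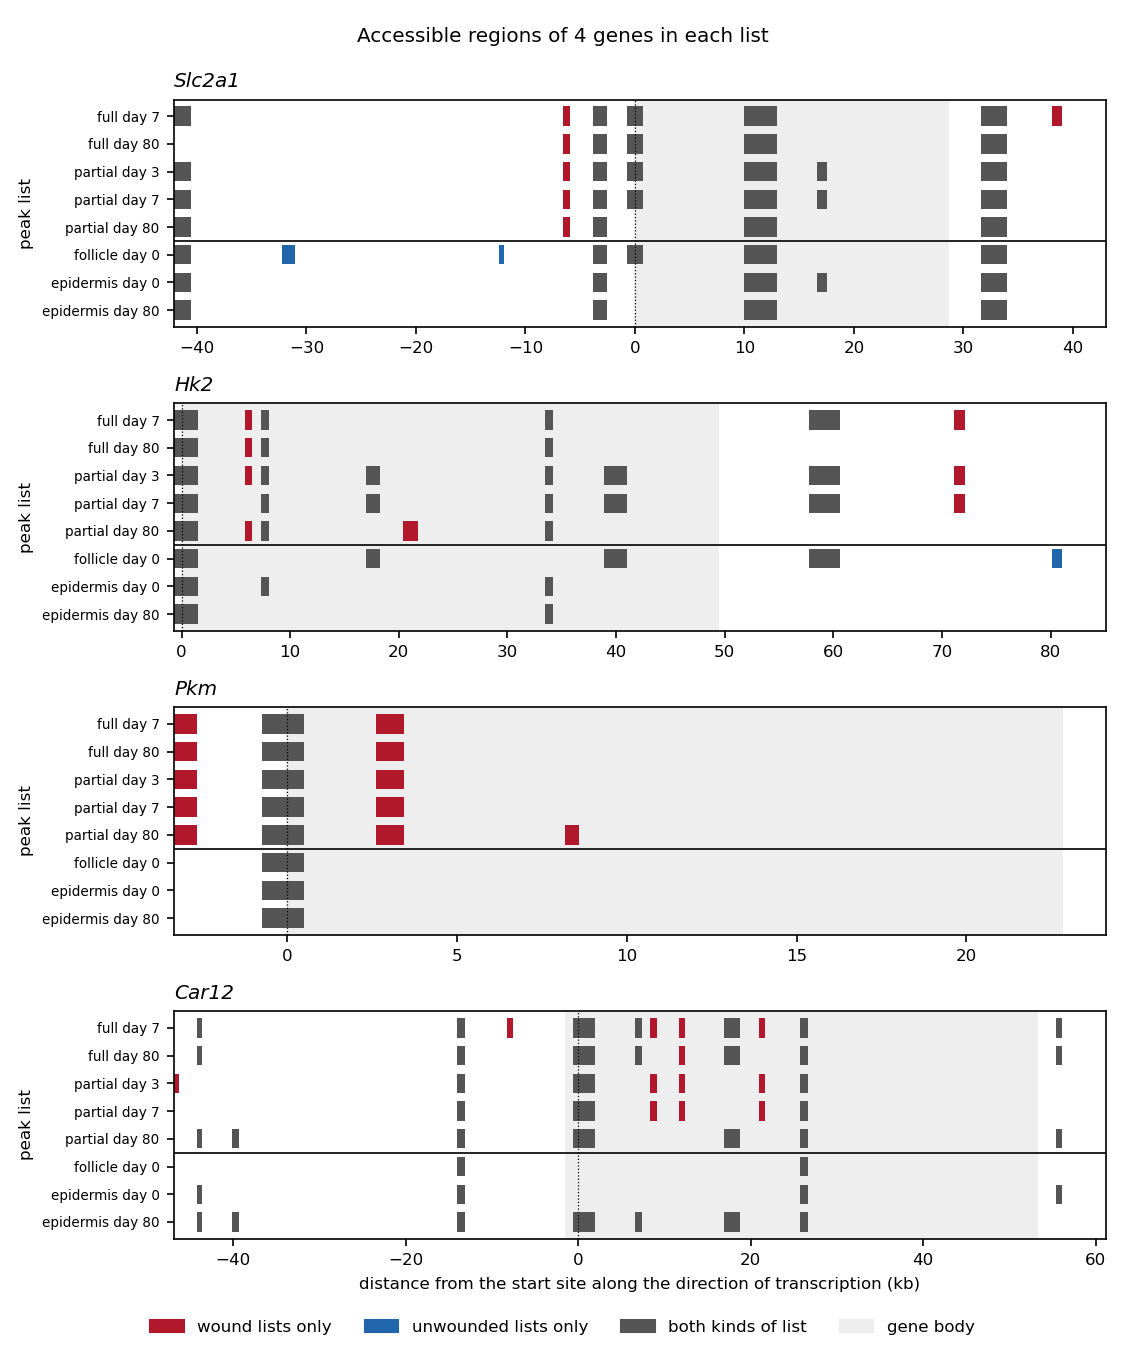
Regions of Slc2a1, Hk2, Pkm and Car12 in each list (rows, wound lists above the horizontal line) against distance from the start site along the direction of transcription, in kb; the gene body is shaded and bars are drawn to scale. Red regions were held by wound lists alone, as on both sides of the Pkm start and 5969 bases before the Slc2a1 start, blue ones by unwounded lists alone, and dark ones by both kinds of list.

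Slc16a3, the lactate exporter MCT4, had 2 regions in each full-thickness list and 1, 2 and 3 in the partial-thickness lists, against 0, 1 and 1 in the hair follicle, epidermal day 0 and epidermal day 80 lists. A region 1192 bases after its start, chr11:120950259-120951326, was in all 5 wound lists, at percentiles 5.88 and 30.6 after full-thickness wounds and 10.3, 19.2 and 23.5 after partial-thickness wounds, and in no unwounded list. Slc16a1, the lactate transporter MCT1, had 6 and 5 regions in the full-thickness lists and 5, 6 and 4 in the partial-thickness lists, against 2 in the hair follicle list, 6 in the epidermal day 0 list and 4 in the epidermal day 80 list. Its regions chr3:104609021-104610715 and chr3:104666867-104667780 were in every list but that of the hair follicle. Eno1, the main enolase, had 4 and 3 regions in the full-thickness lists, 4, 5 and 3 in the partial-thickness lists, and 4, 2 and 3 in the hair follicle, epidermal day 0 and epidermal day 80 lists. Ldhb, the other lactate dehydrogenase subunit, had 1 and 3 regions in the full-thickness lists, 1, 1 and 2 in the partial-thickness lists, and 1, 1 and 2 in the hair follicle, epidermal day 0 and epidermal day 80 lists.

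The 6 regions in all 5 wound lists and no unwounded list, of Slc2a1, Hk1, Tpi1, Slc16a3 and, with 2, Pkm, were 3.73% of the set, beside 0.718% of all regions. Which regions were counted rested on weak peaks. In lists of equal length there were 2 (1.37%, beside 0.46% of all regions), of Slc2a1 and Vegfa. With the stronger 50% of each list there were 3, of Eno1, Hk2 and Slc16a1. The set's share was above that of all regions in each of the 7 settings tried, from 1.37% to 4.72%. The windows of 10 kb and 100 kb, distance to the start site and merging within 500 bp each gave 6 regions of the same genes. Those settings are thus no separate support. In the other settings the shares come from fewer regions, and the genes changed. This presence was also picked after the data were seen. The regions in no unwounded list at all numbered 41 (25.5%), which is near or below the 28.6% of all regions. The regions in 3 or more wound lists and no unwounded list numbered 15 (9.32%), beside 7.53%.

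Unwounded hair follicle stem cells were compared with unwounded epidermal stem cells at day 0 to describe the pair of resting states. The hair follicle list alone held 18 of 110 regions (16.4%, interval 10.0% to 24.6%), beside 26.5% of all regions. The epidermal day 0 list alone held 36 (32.7%, interval 24.1% to 42.3%), beside 29.4%. The hair follicle list held fewer regions for 13 of the 32 genes and more for 4, while over all genes with a region in either list 27.5% had fewer and 23.9% more. By 2 or more it held fewer of Epas1, Car12, Slc2a3, Gpi1, Pfkp, Pfkfb4 and Slc16a1, and more of Slc2a1, Hk2 and Eno1, and each of these differences was also 2 or more in lists of equal length. With the stronger 50% of each list it was so for 2 of the 7, Epas1 and Slc2a3, and 2 of the 3, Slc2a1 and Hk2. Where peaks had to cover at least 50% of a region, it was so for Epas1, Car12 and Slc2a3 of the 7 and for all 3. A set of 14 regions (8.70%, beside 4.82% of all regions) was in every list but that of the hair follicle, 3 of them of Epas1, 2 each of Pfkfb3, Eno1 and Slc16a1, and 1 each of Hif1a, Egln3, Hk1, Hk2 and Pfkp. In the hair follicle list alone were 6 regions (3.73%, beside 8.91%), of Slc2a1, Eno1, Hk2 and Hif1a. With the stronger 50% of each list the hair follicle list alone held 14 of 55 regions (25.5%, beside 27.7%) and the epidermal list alone 21 (38.2%, beside 31.2%). Of those 55 regions, 6 had no peak at all in the full epidermal list (10.9%, beside 15.2%) and 7 had none in the full hair follicle list (12.7%, beside 18.4%). With peaks that cover at least 50% of a region, the hair follicle list alone held 30.6%, beside 36.0%.

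The unwounded epidermal lists were compared between day 80 and day 0. The day 80 list alone held 14 of 106 regions (13.2%), beside 16.2% of all regions, and the day 0 list alone held 17 (16.0%), beside 12.7%. With the stronger 50% of each list the day 80 list alone held 22.6%, beside 18.1%, so its side of the value of all regions turned. By 2 or more regions, day 80 held more of Car12 and fewer of Slc2a3, Gpi1 and Slc16a1, the last not so in lists of equal length. Only the Slc2a3 difference was left, and Car12 turned, both with the stronger 50% of each list and with cover of at least 50% of a region. Of the 53 regions in the stronger 50% of either list, 0 had no peak at all in the day 0 list, beside 1.84% of all such regions, and 1 had none in the day 80 list (1.89%, beside 1.93%). These shares are near those of all regions.

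Partial-thickness wound cells were compared with the unwounded hair follicle cells from which the labels derive them. The partial-thickness lists alone held 51 of 125 regions at day 3 (40.8%, interval 32.1% to 49.9%), 46 of 120 at day 7 (38.3%) and 49 of 123 at day 80 (39.8%), beside 35.0%, 33.0% and 32.5% of all regions. The hair follicle list alone held 10 of the day 3 pair (8.0%, interval 3.90% to 14.2%), 12 of the day 7 pair (10.0%, interval 5.27% to 16.8%) and 23 of the day 80 pair (18.7%), beside 20.0%, 19.8% and 23.8%. The intervals of the day 3 and day 7 shares lay below the values of all regions. In lists of equal length these shares were 18.5% at day 3, beside 26.9% of all regions, and 17.1% at day 7, beside 26.2%. With the stronger 50% of each list the day 7 share was 12 of 59 (20.3%), beside 20.7%, so that gap was gone. At day 3, 18 of the 32 genes had more regions and 2 had fewer, while 39.1% of all genes with a region in either list had more and 13.7% fewer. By 2 or more regions, Epas1, Vegfa, Car12, Ddit4, Slc2a3, Hk1, Hk2, Pfkp, Pfkfb3, Pfkfb4, Pkm and Slc16a1 were higher in number at day 3, and none was lower. No share of all genes is given for differences of 2 or more, here or in the other comparisons. The set has a median of 4 regions per gene, against 2 over all genes with a region. Of these 12 genes, 6 still had 2 or more regions more in lists of equal length, namely Epas1, Vegfa, Car12, Pfkfb3, Pkm and Slc16a1, while Hk2 had 4 at day 3, against 5 in the hair follicle list. With the stronger 50% of each list 4 did, namely Epas1, Vegfa, Pfkfb3 and Slc16a1, and Hk2 had 2 at day 3, against 5. With peaks that cover at least 50% of a region all 12 did. Of the 61 regions in the stronger 50% of either list, 16 of the day 3 list had no peak at all in the hair follicle list (26.2%, beside 19.0%), and 1 of the hair follicle list had none at day 3 (1.64%, beside 11.3%).

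Early wound cells were also compared with unwounded epidermal stem cells of day 0. The wound list alone held 34 of 126 regions in the full-thickness day 7 comparison (27.0%), 41 of 133 at partial-thickness day 3 (30.8%) and 28 of 120 at partial-thickness day 7 (23.3%), beside 32.4%, 31.7% and 27.8% of all regions. The epidermal list alone held 10 (7.94%, interval 3.87% to 14.1%), 18 (13.5%) and 12 (10.0%, interval 5.27% to 16.8%) of the same regions, beside 18.1%, 19.2% and 17.0%. The side on which the wound share fell depended on the setting. With the stronger 50% of each list the wound list alone held 47.4%, 37.9% and 32.8% in the same order, beside 34.6%, 33.2% and 29.7%, and the epidermal list alone held 19.2%, 19.7% and 23.0%, beside 21.0%, 21.6% and 19.3%. Where peaks had to cover at least 50% of a region, the wound list alone held 50%, 52.8% and 46.8%, beside 44.9%, 44.5% and 39.6%. The epidermal share was thus below that of all regions as deposited, and above it at partial-thickness day 7 among the stronger peaks. In lists of equal length the epidermal list alone held 19.8%, 21.4% and 16.4%, beside 24.7%, 24.9% and 21.9% of all regions. By 2 or more regions, Vegfa, Car12, Slc2a1, Hk2, Eno1 and Pkm had more in each of the 3 early wound lists, while Car9 had fewer in the full-thickness day 7 and partial-thickness day 3 lists and Slc2a3 in the full-thickness day 7 list. Vegfa, Slc2a1 and Pkm still had 2 or more regions more in each of the 3 in lists of equal length, and Car12, Hk2 and Eno1 did not, with Car12 at 3 in the partial-thickness day 7 list, against 4 in the epidermal list. With the stronger 50% of each list only Slc2a1 and Eno1 did in each of the 3, and Car12 had fewer at partial-thickness day 3. With peaks that cover at least 50% of a region each of these genes did. These 3 comparisons share the epidermal list.

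**Figure D4:**
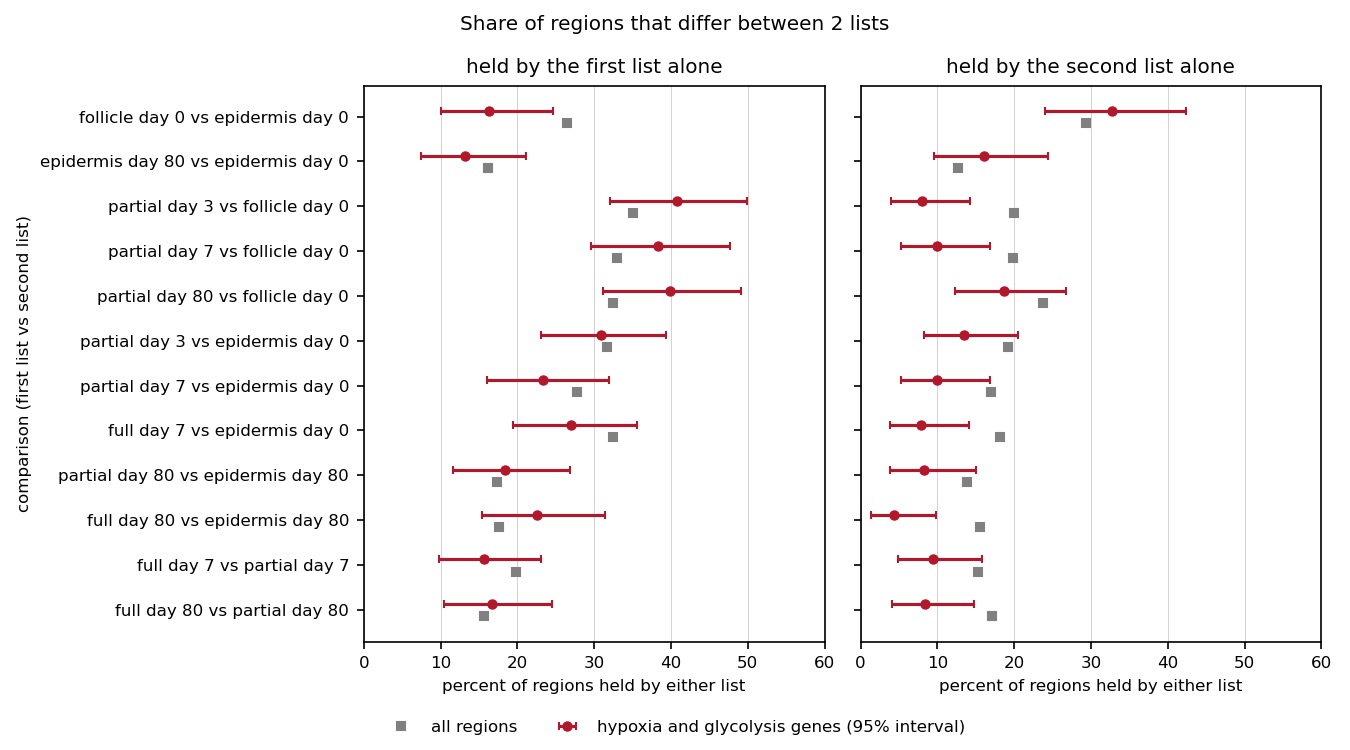
Share of regions held by the first list alone (left) and by the second list alone (right) in the 12 comparisons, with the lists as deposited, for the hypoxia and glycolysis genes (red points with exact 95% intervals) and for all regions (grey squares), in percent of the regions held by either list. The set's share held by the second list alone lies below the grey square in the 10 comparisons that involve a wound list, from 4.35% to 18.7%, and above it in the 2 comparisons of unwounded lists.

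Healed wounds were compared with unwounded epidermal stem cells at day 80. The full-thickness list alone held 26 of 115 regions (22.6%), beside 17.6% of all regions, and the epidermal list alone held 5 (4.35%, interval 1.43% to 9.85%), beside 15.6%. In lists of equal length the epidermal share was 8.33%, beside 17.2%. The partial-thickness list alone held 20 of 109 regions (18.3%), beside 17.3%, and the epidermal list alone held 9 (8.26%), beside 13.9%. Pkm, Hk2 and Pfkfb4 had at least 2 more regions in both wound lists. Egln3 and Pfkp did so in the full-thickness list and Slc16a3 in the partial-thickness list, where Epas1 had 2 fewer. At equal list length the differences of 2 or more were left for Egln3 and Hk2 in the full-thickness list and for Pkm and Epas1 in the partial-thickness list. With the stronger 50% of each list none was left, and Epas1 turned. Where peaks had to cover at least 50% of a region, none was left in the full-thickness list, and Pfkp and Pfkfb4 turned there. In the partial-thickness list Hk2, Pfkfb4, Pkm and Slc16a3 then kept theirs, and Epas1 turned. Of the regions in the stronger 50% of either list, 7 of 59 of the full-thickness list had no peak at all in the epidermal list (11.9%, beside 4.5%), and 2 of 55 of the partial-thickness list had none there (3.64%, beside 2.97%). Where peaks had to cover at least 50% of a region, the epidermal list alone held 45.6% against full-thickness, beside 50.4%, and the partial-thickness list alone held 46.9%, beside 41.6%.

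Full-thickness wound cells were compared with partial-thickness wound cells at the same day, and these also differ in Cre line and labelled origin. At day 7 the full-thickness list alone held 20 of 128 regions (15.6%), beside 19.8% of all regions, and the partial-thickness list alone held 12 (9.38%), beside 15.3%. With the stronger 50% of each list the full-thickness share was 23 of 70 (32.9%), beside 21.0%, and so on the other side of the value of all regions. At day 80 the full-thickness list alone held 20 of 120 regions (16.7%), beside 15.7%, and the partial-thickness list alone held 10 (8.33%, interval 4.07% to 14.8%), beside 17.1%. With peaks that cover at least 50% of a region the day 80 shares were 7.77%, beside 8.66%, and 64.1%, beside 64.1%. By 2 or more regions, the full-thickness list held more of Epas1, Egln1, Egln3 and Car12 at day 7, and more of Epas1, Egln3, Pfkp and Pfkfb3 at day 80. Slc2a3 had 2 fewer at day 7. Epas1 and Egln3 at day 7 and Pfkfb3 at day 80 differed by less than 2 in lists of equal length, and the others still differed by 2 or more. With the stronger 50% of each list only Egln1 at day 7 and Epas1 and Egln3 at day 80 did, and Slc2a3 at day 7 turned. Where peaks had to cover at least 50% of a region, the day 7 differences stayed at 2 or more. All 4 genes of day 80 then had fewer regions in the full-thickness list.

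Regions that appeared with the wound were those in the partial-thickness day 3 or day 7 list and in neither day 0 list. There were 30, of 16 genes, which is 18.6% of the set, beside 19.8% of all regions. With peaks that cover at least 50% of a region the share was 32.3%, beside 24.9%. Of these, 18 were in both early partial-thickness lists, 11 were at day 3 alone and 1 was at day 7 alone, and 21 were also in the full-thickness day 7 list. At day 80, the full-thickness list held 13 (43.3%, interval 25.5% to 62.6%), the partial-thickness list 10 (33.3%, interval 17.3% to 52.8%) and the unwounded epidermal list 3 (10.0%), beside 21.6%, 18.5% and 10.4% of all such regions. With that cover the full-thickness list held 9.62%, beside 5.21%, and the epidermal list 1.92%, beside 6.81%. In both day 80 wound lists and not in the unwounded epidermal list were 7, of Slc2a1, Hk1, Hk2, Tpi1, Slc16a3 and, with 2, Pkm. Another 16 were in no day 80 list, among them regions of Car12, Hk1, Hk2, Pfkfb3, Slc2a3, Epas1, Pfkfb4 and Eno1. The 3 also found in the unwounded epidermal day 80 list were the Car12 start, the upstream Vegfa region and the Pfkl region. Shares over all such regions are given for the single day 80 lists alone. The 7, the 16 and the split among the early wound lists have no value beside them, so they do not set these genes apart.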

How the data were processed

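Accessible chromatin was profiled by ATAC-seq in 24 samples of 8 groups, and 8 peak lists, 1 per group, were analysed. The submitters' processing notes name MACS2 2.1.1.20160309, bedtools 2.29.2, Bowtie and Picard, and the build mm10, without role or order. No source used here states whether the authors called peaks on pooled or single samples. The score of a deposited peak served to rank it within its list. The fold enrichment, a ratio deposited by the authors, compares a peak with the local background of its own list. The -log10 p deposited for a peak gave its percentile within that list. The deposited summit offset is a position within the peak. Read counts were not used here, so depth is unknown and intervals cover counting error alone.

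Peaks were merged where they overlapped or touched, a list held each region it overlapped by at least 1 bp, and each region was given to the nearest protein-coding gene of the RefSeq table for GRCm38.p6, within 50 kb; a region equally near to more than 1 gene was given to each. This touched 4 regions of the set. Lists were matched to groups by the name they were deposited under, and 0 columns of other series were left out. For each of 12 comparisons, the share of regions held by 1 list alone was computed over regions held by either, with exact 95% Clopper-Pearson intervals, beside the share of all regions. Genes that differed by 2 or more regions are named without a share of all genes beside them. The genes and lists were chosen with earlier results of these data known. Every gene was to be named with its counts, and described in full where its counts differed by 2 or more regions in a comparison, where a region that appeared with the wound was held at day 80, or where all its regions were in all 8 lists. Settings tried were the stronger 50% of each list, lists of equal length, cover of at least 50% of a region, windows of 10 kb and 100 kb, distance to the start site, and merging within 500 bp. The scripts were tested on simulated data, and used Python 3.11.15, pandas 2.3.3, numpy 2.4.6, scipy 1.17.1 and matplotlib 3.10.9.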

Additional observations from a re-analysis of the deposited data

Results flagged for a closer look

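For 4 genes the number of regions moved in opposite directions after the different wounds, relative to the same unwounded epidermal list. The cells of the wound types also differ in Cre line and labelled origin. At day 7, Egln1 differed by 1 region in the full-thickness list and by -1 in the partial-thickness list, relative to epidermal day 0. Egln3 likewise differed by 1 in the full-thickness list and by -1 in the partial-thickness list. At day 80, Epas1 differed by 1 region in the full-thickness list and by -2 in the partial-thickness list, relative to epidermal day 80. Pfkfb3 differed by 1 in the full-thickness list and by -1 in the partial-thickness list. That is 2 of the 32 genes at each day (6.25%), beside 2.79% of all genes with a region in these lists at day 7 and 3.78% at day 80. At equal list length Egln1 and Epas1 still moved in opposite directions, Egln3 and Pfkfb3 did not, and Car12, Slc16a1 and Pfkp then did. With 1 list per group these differences were not tested, there is no spread to set them against, and 3 of the 4 genes differed by a single region either way.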

How the results depend on the processing

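Of 32 shares, none moved beyond its interval with distance to the start site, a window of 100 kb or merging within 500 bp, and 1 moved with a window of 10 kb: the hair follicle list alone then held 4.21% against partial-thickness day 7, with 19.8% over all regions. The share of all regions stands in parentheses from here on. Lists of equal length moved 7. The partial-thickness day 3 list alone held 31.5% (27.0%) and the hair follicle list alone 18.5% (26.9%), against day 7 the hair follicle list held 17.1% (26.2%), partial-thickness day 3 and epidermal day 0 held 21.4% each (25.8% and 24.9%), epidermal day 0 held 19.8% (24.7%) against full-thickness day 7, and 1.37% (0.46%) of the set was in the 5 wound lists and no unwounded list. Taking the stronger 50% of each list moved 10. Held by 1 list alone were 25.5% (27.7%; hair follicle against epidermal day 0), 22.6% (18.1%; epidermal day 80 against day 0), 20.3% (20.7%; hair follicle against partial-thickness day 7), 32.8% and 23.0% (29.7% and 19.3%; partial-thickness day 7 and epidermal day 0), 47.4% and 19.2% (34.6% and 21.0%; full-thickness day 7 and epidermal day 0) and 32.9% (21.0%; full-thickness against partial-thickness day 7), while 13.0% (18.8%) were in all 8 lists and 30.0% (27.6%) in 1. A cover of at least 50% of a region moved 17. The hair follicle list then held 30.6% (36.0%) alone against epidermal day 0, partial-thickness days 3, 7 and 80 held 53.3% (40.4%), 50% (36.8%) and 50.4% (37.4%) against the hair follicle, and partial-thickness days 3 and 7 and full-thickness day 7 held 52.8% (44.5%), 46.8% (39.6%) and 50% (44.9%) against epidermal day 0. At day 80, the partial-thickness list held 46.9% (41.6%) and the epidermal list 3.06% (11.7%), the epidermal list 45.6% (50.4%) against full-thickness, and the full-thickness list 7.77% (8.66%) and the partial-thickness list 64.1% (64.1%) against each other. Regions that appeared with the wound became 32.3% (24.9%), held at day 80 by 9.62% (5.21%) in the full-thickness and 1.92% (6.81%) in the epidermal list, with 4.97% (7.09%) in all 8 lists and 2.48% (1.39%) in all lists except the hair follicle list. Of the 256 counts of regions per gene and list, 27 moved by over 1.5 times or to or from 0 in lists of equal length, 74 with the cover and 148 with the stronger 50%. The median peak width of 460 bp in the full-thickness day 80 list, the shortest of the 8, bears on that setting directly. The share in the 5 wound lists alone and that in all lists except the hair follicle list were added after the data were seen.

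No paired analysis was possible because each group has 1 list and no result comes from a test. Leaving out replicates was not run, since the lists hold no single samples.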

Other observations

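Of 38 other genes of the pathway, 37 were in the gene table and 32 had a region, with 104 regions in all. These genes had 76 and 61 regions in the full-thickness lists (days 7 and 80), 66, 64 and 66 in the partial-thickness lists (days 3, 7 and 80), and 54, 61 and 61 in the hair follicle, epidermal day 0 and epidermal day 80 lists. In all 8 lists were 36 of the 104 regions (34.6%), beside 22.0% of all regions. The genes named here were chosen after their values were seen. Adm, which encodes the vessel-dilating peptide adrenomedullin and is a known HIF target, had 6 and 3 regions in the full-thickness lists and 5, 4 and 5 in the partial-thickness lists, against 2 in each unwounded list. Mxi1, a MYC antagonist, had 9 and 5 regions in the full-thickness lists, 8, 6 and 4 in the partial-thickness lists, and 4, 5 and 4 in the hair follicle, epidermal day 0 and epidermal day 80 lists. Bnip3l, a relative of Bnip3, had 6 and 2 regions in the full-thickness lists, 5, 5 and 2 in the partial-thickness lists, and 3, 2 and 3 in the hair follicle, epidermal day 0 and epidermal day 80 lists.

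The lactate transporter gene Slc16a7 had fewer regions in most wound lists than in the unwounded lists: 2 and 3 in the full-thickness lists and 3, 5 and 3 in the partial-thickness lists, against 7, 6 and 5 in the hair follicle, epidermal day 0 and epidermal day 80 lists. Pdk3, a relative of Pdk1, had 4 regions in each full-thickness list, 1, 1 and 4 in the partial-thickness lists, and 2, 4 and 4 in the hair follicle, epidermal day 0 and epidermal day 80 lists. Pgam2, Hk3, Pklr and Ldhc, enzymes best known from tissues other than skin, had 0 regions in every list. Vhl, which encodes the ubiquitin ligase subunit that recognises hydroxylated HIF, and Pgk1, the phosphoglycerate kinase, had 1 region in every list.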
